A study of Mus musculus with 11 samples.

Results

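The acute-phase and interleukin-6 response was followed through 10 genes in the adventitia of the mouse abdominal aorta: the receptor genes Il6ra, Osmr and Il6st, the transcription factor Stat3, its feedback inhibitor Socs3, and the secreted products Saa3, Lcn2, S100a8, S100a9 and Slpi. They are 10 of 12393 genes on the array and are read by 18 of its 22626 probe sets, each with a single gene symbol. The genes were chosen with the measured ATLO minus outside-lesion changes of these arrays in view, and Saa3 and Slpi ranked 8 and 9 of 14988 tested probe sets for the size of their rise there. The values of both comparisons that hold the ATLO arrays are therefore given for these genes as a description, with no test. Of the 18 probe sets, 17 passed the filter on low signals, which required 3 arrays above their own 40th percentile. The 1 that did not is the dimmest probe set of Il6st.

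Messenger RNA was measured on 11 Affymetrix arrays, 1 per sample. Of these, 4 held adventitia with an artery tertiary lymphoid organ (ATLO), an organised lymphocyte aggregate that forms beside an atherosclerotic plaque, taken from within the lesion area of male Apoe-deficient mice (strain B6.129P2-Apoe<tm1Unc>/J) aged 78 weeks. Another 4 held adventitia taken outside the lesion area of mice of the same strain, sex and age, although the series' design text describes this group as mice without lesions. The last 3 held abdominal aortic adventitia of male C57BL mice aged 78 weeks, whose titles carry the letters PNS with no explanation. All mice ate normal chow, and all tissue was cut out by laser capture from frozen aorta. For the Apoe-deficient groups, vessels were perfused with PBS and EDTA, 200 sections of 10 micrometres were pooled per sample, RNA was purified with phenol, chloroform and an RNeasy Micro kit, and it was transcribed in vitro for 68 h. Wild-type RNA came from an RNeasy Lipid Tissue Mini kit and was transcribed for 24 h, so genotype and protocol cannot be told apart in either comparison with wild type. Apoe-deficient mice lack apolipoprotein E from conception in every tissue. No label says that the arrays of a group come from separate mice, so a p-value here measures the spread between samples, which may be technical.

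Apoe read 86.9 to 150.2 on the ATLO arrays, 45.9 to 179.7 on the outside-lesion arrays and 11969 to 13164 on the wild-type arrays, as the genotype labels say. The number of arrays limits the precision of every value. The ratio of 3' to 5' actin probe sets, which grows as RNA is shortened, ran from 1.714 to 8.137 on the ATLO arrays, 6.221 to 11.99 outside lesions and 4.194 to 5.405 in wild type. Fibroblast markers of the adventitia were present in all groups, with a summed signal over 10 genes of 56889 to 111000 on the ATLO arrays, 31545 to 80512 outside lesions and 54347 to 62850 in wild type. Of the 10, 6 rose and 0 fell in ATLO against outside lesions (median log2 change 1.09), and 4 rose and 1 fell against wild type (median 0.50). Of all genes tested, 19.8% rose and 14.9% fell in the former comparison, and 13.6% rose and 14.1% fell in the latter. Lum, for the matrix proteoglycan lumican, rose by 2.75 ± 0.28 and 1.56 ± 0.30, with limma adjusted p of 2.17e-05 and 0.00252. The summed signal of 8 adipocyte markers was 14317 to 33260 on the ATLO arrays, below the 81033 to 109110 outside lesions and the 51576 to 73742 of wild type. In bulk tissue of this kind, fewer cells of a type and less RNA per cell cannot be told apart.

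Interleukin-6 and its relatives bind receptor chains that are specific to each cytokine, such as the interleukin-6 receptor and the oncostatin M receptor, and these pair with the shared chain gp130, the product of Il6st. JAK kinases on the receptor then phosphorylate STAT3, which enters the nucleus and switches on target genes, among them Socs3, whose product binds gp130 and JAK and shuts the signal down. Serum amyloid A, lipocalin-2 and the calprotectin subunits S100A8 and S100A9 are products of the acute-phase and innate response. In atherosclerosis, these cytokines and alarmins are known to act on macrophages, smooth muscle cells and fibroblasts of the vessel wall.

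Across the 3 groups, the secreted products and Socs3 differed most, Osmr and Stat3 less, and Il6st and Il6ra least. On ATLO arrays the mean log2 signal was higher than outside lesions by 4.45 for Saa3, 4.41 for Slpi, 2.57 for Lcn2, 2.33 for Socs3, 2.28 for S100a9 and 2.09 for S100a8. For Osmr it was higher by 1.52, for Stat3 by 0.96 and for Il6st by 0.41, while for Il6ra it was lower, at -0.23. The median over the 10 genes, each read by its brightest probe set, was 2.18, beside 0.11 for all genes tested. Of the 17 probe sets, 11 had a limma adjusted p below 0.05 and a higher mean in ATLO, beside 17.9% of all probe sets tested, and 10 had no overlap between the arrays, beside 17.2% of all. Counted by gene, 8 of the 10 passed in the higher direction, beside 19.8% of all genes, and 0 in the lower, beside 14.9%. Because this comparison was in view when the genes were chosen, nothing is read from these counts.

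**Figure D1:**
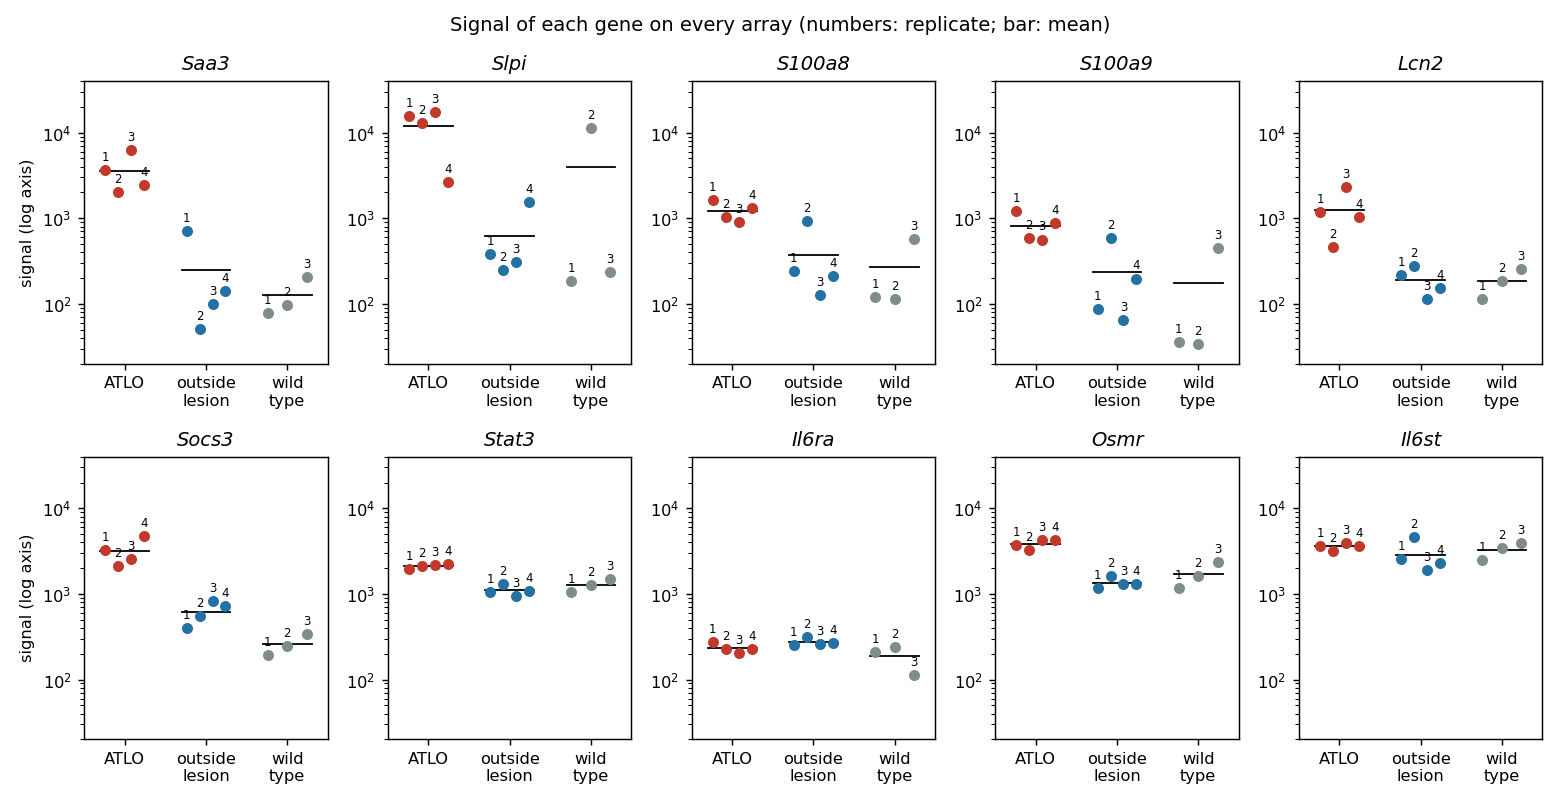
Signal of the brightest probe set of each gene on all 11 arrays, on a log axis, with points numbered by replicate and a bar at the mean of each group. The ATLO arrays sit above all outside-lesion arrays for Saa3, Slpi, Lcn2, Socs3, Stat3 and Osmr, and overlap with them for S100a8, S100a9, Il6ra and Il6st.

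Against wild type, 11 of the 17 probe sets passed in the higher direction, beside 13.4% of all probe sets, and 10 had no overlap, beside 17.3%. Counted by gene, 8 of 10 were higher, beside 13.6% of all genes, and 0 lower, beside 14.1%. The median change of the 10 genes was 2.58, beside -0.05 for all genes tested. Both comparisons use the same ATLO arrays, so their values are set side by side below and are not independent of each other. Nothing is read from the counts against wild type either, because those ATLO arrays were in view when the genes were chosen. Leaving out 1 of the 11 arrays at a time, the call of S100a9 against outside lesions was lost in 7 fits, and against wild type that of Slpi in 5 (without ATLO replicate 1, 2 or 3 or wild-type replicate 1 or 3) and that of S100a9 in 2 (without wild-type replicate 1 or 2). For S100a9 against outside lesions, the call was kept without outside-lesion replicate 2 or any 1 of the wild-type arrays. Of the 10 genes, an adjusted p is printed for the comparison of outside-lesion with wild-type adventitia. It comes from the fit over all 11 arrays and shares the outside-lesion arrays with the comparison in view when the genes were chosen, so it is not free of that choice.

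The cytokines that act on these receptors are described first, from a list of the interleukin-6 family that holds none of the 10 genes. Like all lists here, it was chosen with earlier results of these data known, so the list counts are not independent evidence. They stand beside 19.8% of all genes tested that rose and 14.9% that fell against outside lesions. Against wild type these shares were 13.6% and 14.1%. Of the 4 tested members of the cytokine list, 3 rose in ATLO against outside lesions and 1 fell. Il6, and in later lists Il10ra and Stat4, read at most 44.6, 79.2 and 82.0 outside ATLO. They passed the filter on low signals through their ATLO arrays, as could any list gene that was dim elsewhere. The list counts are therefore partly set by the filter. Il6 itself, the founding cytokine of the family, read 742.9, 108.6, 189.5 and 741.4 on the ATLO arrays, 3.6, 23.6, 5.1 and 44.6 outside lesions and 44.6, 34.3 and 38.4 in wild type. The ATLO arrays lay above all others, but 3 of the 4 outside-lesion signals lay below the floor of 35.1 to which signals were raised, so the fitted log2 change of 3.13 ± 0.53 (SE; limma adjusted p 6.15e-04) understates the difference. Clcf1, a cytokine that signals through the ciliary neurotrophic factor receptor, read 198.6 to 443.6 in ATLO and 35.3 to 116.4 outside lesions, a log2 change of 2.21 ± 0.38 (limma adjusted p 6.22e-04). Ctf1, which encodes cardiotrophin-1, read 172.9 to 214.2 in ATLO and 235.9 to 352.2 outside lesions, and fell by 0.72 on the log2 scale (limma adjusted p 0.0107). Against wild type the same 3 genes changed by 3.06 ± 0.58, 1.82 ± 0.41 and -0.82 ± 0.20, with limma adjusted p of 0.00224, 0.00595 and 0.0102. Lif and Il11 were dim in all groups, at 32.1 to 147.3 and 28.5 to 109.8, and did not enter the test.

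Il6ra encodes the ligand-binding chain of the interleukin-6 receptor. Its brighter probe set read 272.5, 229.8, 205.3 and 229.5 on the ATLO arrays, 255.8, 315.1, 259.9 and 267.9 outside lesions and 210.6, 236.8 and 113.2 in wild type. The group means were 234 ± 28.0 (SD, n = 4), 275 ± 27.4 (n = 4) and 187 ± 65.1 (n = 3). ATLO overlapped with both other groups, and the log2 changes were -0.23 ± 0.23 (SE) against outside lesions and 0.39 ± 0.25 against wild type. Without wild-type replicate 3, the lowest of that group, the latter was 0.06. The outside-lesion arrays all lay above the wild-type arrays, by 0.62 ± 0.25, but the limma adjusted p was 0.165. The dimmer probe set differed in sign from the brighter one in all 3 comparisons, at 0.66 ± 0.48, -0.17 ± 0.52 and -0.83 ± 0.52, and its arrays overlapped in each. No direction is given for Il6ra on this ground.

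Osmr encodes the receptor chain that binds oncostatin M together with gp130, and the gene lies beside Lifr, the related leukaemia inhibitory factor receptor, on chromosome 15. The brighter probe set of Osmr read 3759.2, 3215.8, 4299.3 and 4238.4 on the ATLO arrays, 1182.8, 1604.6, 1306.8 and 1309.5 outside lesions and 1159.8, 1612.9 and 2388.6 in wild type. Every ATLO array was above every other array, with means of 3878 ± 503 (SD, n = 4), 1351 ± 179 (n = 4) and 1720 ± 621 (n = 3). The log2 change was 1.52 ± 0.20 (SE) against outside lesions, a 2.87-fold difference, and 1.23 ± 0.22 against wild type. Outside lesions and wild type overlapped, with a change of -0.30 ± 0.22 and a limma adjusted p of 0.428. A second, dim probe set read 111.3 to 140.8 in ATLO, 53.5 to 94.9 outside lesions and 102.3 to 217.9 in wild type. It separated ATLO from outside lesions, by 0.79 ± 0.31, but not from wild type, at -0.11 ± 0.33, where the probe sets of Osmr disagree in sign. Lifr read 1713.6 to 2404.7 in ATLO and 1212.3 to 2724.3 outside lesions, with a log2 change of 0.25 ± 0.22 and a limma adjusted p of 0.41. Of the 10 fibroblast markers given above, 6 rose against outside lesions, as Osmr, Saa3, Il6 and Il33 did. Their summed signal, however, overlapped between the groups. The part of fibroblasts in these differences was not tested.

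Il6st encodes gp130, the signalling chain shared by the whole cytokine family. Its brightest probe set read 3644.3, 3158.1, 3884.1 and 3662.9 on the ATLO arrays, 2578.2, 4659.8, 1883.5 and 2293 outside lesions and 2513.3, 3441.5 and 3941.4 in wild type. The highest of all 11 signals was outside-lesion replicate 2, and the groups overlapped in every comparison. Means were 3587 ± 306 (SD, n = 4), 2854 ± 1237 (n = 4) and 3299 ± 725 (n = 3), so the spread outside lesions was several times that within ATLO. The log2 changes were 0.41 ± 0.24 (SE) for ATLO against outside lesions and 0.14 ± 0.26 against wild type. Without outside-lesion replicate 2 the former was 0.68. Outside lesions against wild type gave -0.27 ± 0.26, with a limma adjusted p of 0.55. The second probe set of Il6st gave 0.06 ± 0.39 and -0.20 ± 0.42 for the ATLO comparisons, and the untested, dimmest one read between 26.2 and 172.8 over all arrays.

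Other receptors of these and related cytokines were taken from a list of 7 tested genes, of which 3 rose and 0 fell against outside lesions, and 2 rose and 1 fell against wild type. Il10ra, the ligand-binding chain for interleukin-10, rose by 3.05 ± 0.30 and 2.65 ± 0.32 in the respective comparisons, with limma adjusted p of 1.9e-05 and 1.51e-04. Il10ra lay below the floor on 2 of 4 outside-lesion and 1 of 3 wild-type arrays, so both changes are understated. Il27ra, which pairs with gp130 on lymphocytes, rose by 2.31 ± 0.33 against outside lesions (limma adjusted p 1.77e-04). Lepr, the leptin receptor, fell by 0.99 on the log2 scale against wild type (limma adjusted p 0.0373). Markers of lymphocytes moved with these values: the summed signal of 8 such genes was 10113 to 22756 on the ATLO arrays, 1553.6 to 2557.7 outside lesions and 1458.2 to 7286.4 in wild type. Their part in the receptor changes was not tested.

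Stat3 encodes the main transcription factor downstream of gp130 and lies beside Stat5a on chromosome 11. Its brightest probe set read 1956.2, 2121.9, 2162.7 and 2255.8 on the ATLO arrays, 1059.7, 1310.4, 935.5 and 1089.5 outside lesions and 1051.9, 1283.1 and 1512.5 in wild type. All ATLO arrays lay above all others, and their spread was narrow, with means of 2124 ± 125 (SD, n = 4), 1099 ± 156 (n = 4) and 1283 ± 230 (n = 3). The log2 change was 0.96 ± 0.15 (SE) against outside lesions, a 1.95-fold difference, and 0.74 ± 0.16 against wild type. A second probe set of Stat3 gave 0.93 ± 0.22 and 1.24 ± 0.24, also without overlap. The third was dim, between 72.9 and 246.7 on all arrays, and gave 0.44 ± 0.37 and 0.49 ± 0.40 with overlap. Outside lesions and wild type differed by -0.22 ± 0.16, with a limma adjusted p of 0.43.

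Of 9 other JAK kinases and STAT factors tested, 5 rose and 1 fell in ATLO against outside lesions, and 3 rose and 0 fell against wild type. Their median log2 changes were 0.51 and 0.48, beside 0.11 and -0.05 for all genes. Stat4, which carries interleukin-12 signals in T cells, rose by 2.51 ± 0.37 and 2.97 ± 0.40, with limma adjusted p of 2.14e-04 and 2.99e-04. It lay below the floor on 1 of 4 outside-lesion and 2 of 3 wild-type arrays, so both changes are understated. Jak2, a kinase that binds gp130, rose by 0.95 ± 0.17 and 0.88 ± 0.18, with limma adjusted p of 7.27e-04 and 0.00345. Stat5a, the neighbour of Stat3, fell by 0.67 on the log2 scale against outside lesions (limma adjusted p 0.0208).

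Socs3 encodes suppressor of cytokine signalling 3, the STAT3-induced inhibitor of gp130 and JAK. To show the letters that a STAT factor could read near its start, the 250 bases upstream of Socs3 are given below from the RefSeq promoter table (GRCm38.p6, chr11:117969367-117969616, minus strand, 5′ to 3′), with motif matches in capitals.

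Socs3: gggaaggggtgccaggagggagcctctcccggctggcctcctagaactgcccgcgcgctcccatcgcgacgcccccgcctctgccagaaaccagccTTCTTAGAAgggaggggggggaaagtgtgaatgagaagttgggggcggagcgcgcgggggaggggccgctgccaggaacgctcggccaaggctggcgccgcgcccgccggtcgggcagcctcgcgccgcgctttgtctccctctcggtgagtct

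The capitals in the Socs3 sequence are the single match to the palindromic STAT motif TTCNNNGAA, 154 to 146 bases before the start. The motif was searched on both strands of the 250 upstream bases of 32841 mouse promoters, of which 7.02% held it, and Socs3 was the only 1 of the 10 genes that did. The search was repeated for 3 other motifs: TTNNGNAA for C/EBP factors, GGNNTTTCC for NF-kB and TGANTCA for AP-1. None of them matched in the Socs3 window. A match describes the letters and is not evidence of binding, and a window without a match says nothing of the factor.

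The representing probe set of Socs3 read 3231.7, 2130, 2573 and 4727.3 on the ATLO arrays, 395.8, 552.3, 825 and 717.9 outside lesions and 195.4, 249.3 and 337.7 in wild type. The 3 groups were ordered without overlap, ATLO above outside lesions above wild type, with means of 3166 ± 1135 (SD, n = 4), 623 ± 188 (n = 4) and 261 ± 71.8 (n = 3). The log2 change was 2.33 ± 0.28 (SE) against outside lesions, a 5.04-fold difference, and 3.57 ± 0.30 against wild type, an 11.9-fold difference. A second probe set of Socs3 repeated this order without overlap, from 1362 to 2845.7 in ATLO through 376.3 to 544.9 outside lesions to 97.4 to 325.9 in wild type. The changes it gave were 2.05 ± 0.32 and 3.22 ± 0.35.

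The third probe set of Socs3 did not share the lower part of that order. It read 513.1, 511.7, 729.6 and 958.6 in ATLO, 214.8, 157.4, 258.3 and 230.2 outside lesions and 183.5, 372.7 and 333.6 in wild type. ATLO was again above all other arrays, by 1.63 ± 0.27 and 1.21 ± 0.29, but outside lesions and wild type overlapped.

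In outside-lesion against wild-type adventitia, the value of Socs3 depended on the probe set and its adjusted p on the analysis. The representing probe set was higher outside lesions by 1.24 ± 0.30 on the log2 scale, with a limma adjusted p of 0.0417. The second was higher by 1.17 ± 0.35 (limma adjusted p 0.0809) and the third lower, at -0.42 ± 0.29 (limma adjusted p 0.398). The adjusted p of the representing probe set was above 0.05 without ATLO replicate 1 (0.0556), ATLO replicate 3 (0.0537), outside-lesion replicate 3 (0.0941), outside-lesion replicate 4 (0.091), or wild-type replicate 1 (0.146), 2 (0.127) or 3 (0.0705). It was the only 1 of the 17 probe sets to pass, beside 3.26% of all probe sets tested.

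Of 12 other inhibitors of JAK-STAT signalling, 4 rose and 2 fell against outside lesions, and 2 rose and 1 fell against wild type, with medians of -0.05 and -0.09. Ptpn6 and Ptpn2, phosphatases that act on JAK-STAT signalling, rose against outside lesions by 1.05 ± 0.26 and 0.95 ± 0.20, with limma adjusted p of 0.00734 and 0.00237. Pias2 and Pias4, of a family of STAT-binding SUMO ligases, fell by 0.72 and 0.55 on the log2 scale in that comparison, with limma adjusted p of 0.0194 and 0.035. Among 20 genes known as STAT3 targets, 12 rose and 1 fell against outside lesions, and 7 rose and 0 fell against wild type. Of all genes tested, 19.8% rose and 14.9% fell in the former comparison, and 13.6% rose and 14.1% fell in the latter. The medians of the 20 were 0.87 and 0.61, beside 0.11 and -0.05 for all genes. Timp1, an inhibitor of matrix metalloproteinases that is also on the acute-phase list, rose by 2.97 ± 0.37 and 2.53 ± 0.40, with limma adjusted p of 6.63e-05 and 7.25e-04. Birc5, the mitotic protein survivin, rose by 2.04 ± 0.46 against outside lesions (limma adjusted p 0.0041), and Il4ra, the interleukin-4 receptor, rose by 2.37 ± 0.33 against wild type (limma adjusted p 3.4e-04). The 1 gene that fell was Vegfa, an angiogenic growth factor, by 1.04 on the log2 scale (limma adjusted p 0.00295). Outside lesions against wild type, 0 of these 20 rose, beside 1.42% of all genes, and 1 fell, beside 1.69%.

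**Figure D2:**
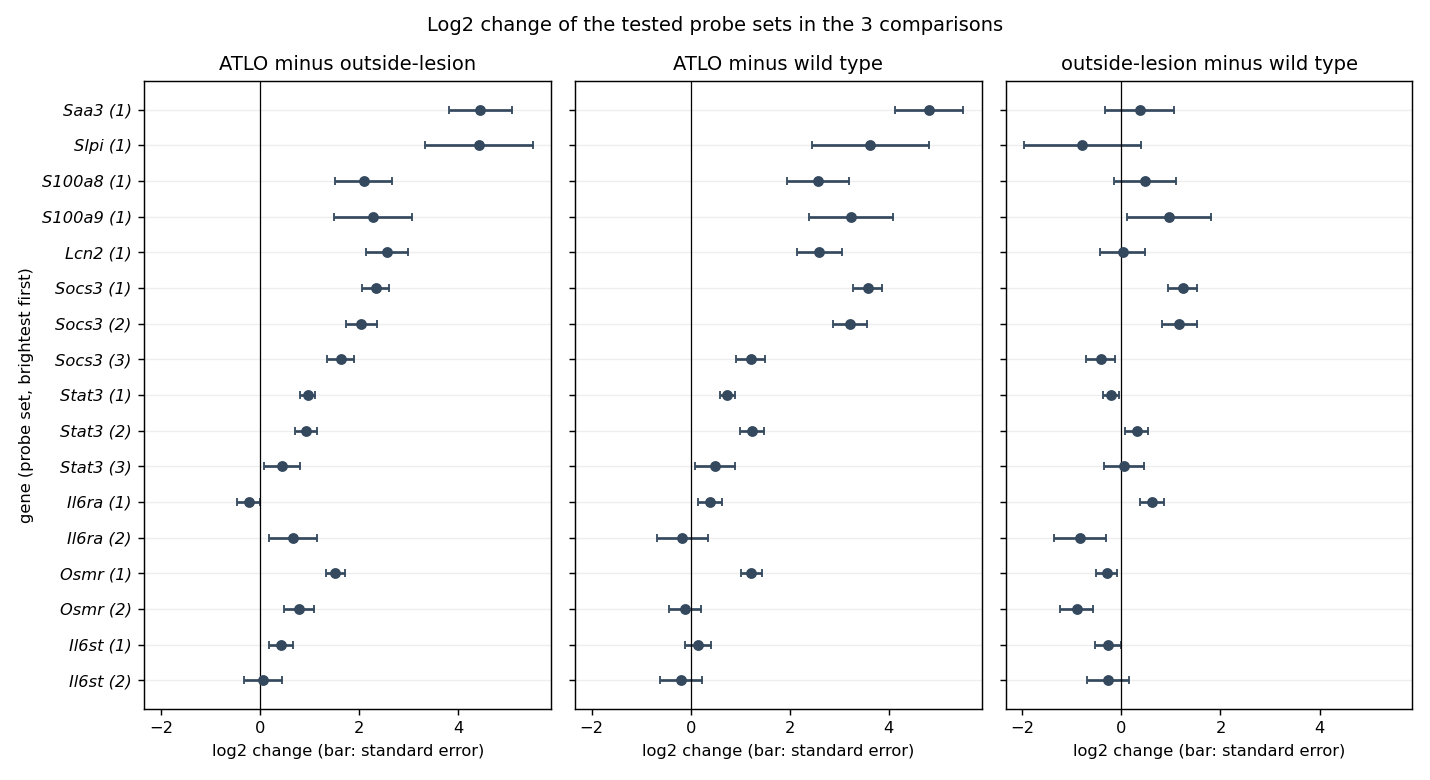
Log2 change and standard error of the 17 tested probe sets, grouped by gene with the brightest probe set first, in the 3 comparisons. Saa3 and Slpi lie near 4.4 in the first panel, the Socs3 probe sets spread from 1.21 to 3.57 in the second, and most values of the third panel lie near 0.

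Saa3 encodes serum amyloid A3, the form of this acute-phase protein that macrophages and adipocytes make outside the liver. Its upstream sequence is shown because it held the most motif matches of the 10 genes (RefSeq, GRCm38.p6, chr7:46715677-46715926, minus strand, 5′ to 3′, matches in capitals).

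Saa3: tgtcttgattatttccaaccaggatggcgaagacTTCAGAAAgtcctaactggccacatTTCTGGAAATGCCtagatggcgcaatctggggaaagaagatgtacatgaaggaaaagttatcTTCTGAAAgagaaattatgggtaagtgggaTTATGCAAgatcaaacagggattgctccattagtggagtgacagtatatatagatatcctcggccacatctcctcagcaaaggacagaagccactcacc

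The capitals in the Saa3 sequence mark 4 matches to the C/EBP motif, starting 216, 191, 129 and 99 bases before the start, and 1 match to the NF-kB motif on the opposite strand, 187 to 179 bases before it, which overlaps the second C/EBP match. The NF-kB motif was in 4.93% of all promoters and, of the 10 genes, in Saa3 alone. The C/EBP motif is short and was in 36.9% of all promoters. It was in 7 of the 10 genes, namely Saa3, Slpi, S100a8, S100a9, Lcn2, Stat3 and Il6ra. The AP-1 motif was in 6.75% of all promoters and in 0 of the 10.

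The Saa3 signal was 3664, 2014.4, 6270.4 and 2450.4 on the ATLO arrays, 713.9, 50.8, 99.7 and 139.5 outside lesions and 78.7, 96.9 and 205.7 in wild type. Every ATLO array was above every other array, and outside-lesion replicate 1 stood above the rest of its group. Means were 3600 ± 1912 (SD, n = 4), 251 ± 311 (n = 4) and 127 ± 68.7 (n = 3). The log2 change of Saa3 was 4.45 ± 0.64 (SE) against outside lesions, a 21.8-fold difference, and 4.81 ± 0.69 against wild type, a 28.1-fold difference. Without outside-lesion replicate 1 the former was 5.20. Outside lesions against wild type gave 0.37 ± 0.69 (limma adjusted p 0.781), and -0.38 without that same array.

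The serum amyloid genes of the liver were dim. Saa1 read 11.4 to 49.3, Saa2 6.1 to 56.4 and Saa4, the next gene to Saa3 on chromosome 7, 5.8 to 102.1 over all 11 arrays. Crp, for C-reactive protein, and the fibrinogen genes Fga, Fgb and Fgg were also too dim to be tested. Of 26 other acute-phase genes on the array, 15 were tested. Of these, 6 rose and 2 fell against outside lesions, beside 19.8% and 14.9% of all genes. Against wild type 7 rose and 1 fell, beside 13.6% and 14.1%. The medians were 0.53 and 0.46. Serpina3n, a serine protease inhibitor, read 3691.5 to 5935.2 in ATLO, 358.5 to 754.8 outside lesions and 300.5 to 903.0 in wild type. Its log2 changes were 3.08 ± 0.31 and 3.31 ± 0.34, with limma adjusted p of 2.24e-05 and 6.25e-05. Orm1 and Orm3, the orosomucoids, fell against outside lesions by 1.59 and 1.85 on the log2 scale, with limma adjusted p of 0.00214 and 0.00153. Orm3 lay below the floor on 2 of the 4 ATLO arrays, so its fall is understated. Hp, for haptoglobin, was bright on all arrays, at 4988.8 to 15693.2, with a log2 change of -0.12 ± 0.31 (limma adjusted p 0.808). The acute-phase list thus had members that rose and members that fell.

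Lcn2 encodes lipocalin-2, which binds bacterial siderophores and is released by neutrophils, macrophages and adipocytes. It read 1169.2, 465.5, 2294.1 and 1034.7 on the ATLO arrays, 217.3, 279.1, 112.5 and 151.3 outside lesions and 115.4, 183.7 and 257.7 in wild type. The ATLO arrays lay above all others, but spread widely among themselves, with a mean of 1241 ± 766 (SD, n = 4) beside 190 ± 73.5 (n = 4) and 186 ± 71.2 (n = 3). The log2 change was 2.57 ± 0.42 (SE) against outside lesions and 2.60 ± 0.46 against wild type. Outside lesions and wild type had nearly equal means, with a change of 0.03 ± 0.46 and a limma adjusted p of 0.983.

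S100a8 and S100a9 encode the subunits of calprotectin, a calcium-binding alarmin most abundant in neutrophils and monocytes, and are neighbouring genes on chromosome 3. S100a8 read 1611.8, 1027.1, 908.6 and 1306.4 on the ATLO arrays, 241.4, 917.1, 126.3 and 213.9 outside lesions and 121.4, 114.3 and 575.2 in wild type. S100a9 read 1206.6, 588.4, 564.1 and 886 on the ATLO arrays, 86.6, 584.1, 64.6 and 197.7 outside lesions and 35.4, 33.8 and 449.9 in wild type. In both genes, outside-lesion replicate 2 reached into the ATLO range, and wild-type replicate 3 stood above the other 2 of its group.

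The mean of S100a8 was 1214 ± 314 (SD, n = 4) in ATLO, 375 ± 365 (n = 4) outside lesions and 270 ± 264 (n = 3) in wild type. Its log2 change was 2.09 ± 0.57 (SE) against outside lesions, with overlap, and 2.57 ± 0.62 against wild type, without. For S100a9 the means were 811 ± 301 (n = 4), 233 ± 241 (n = 4) and 173 ± 240 (n = 3), and the changes 2.28 ± 0.78 and 3.23 ± 0.85. Leaving out 1 array at a time, the change of S100a8 against outside lesions ran from 1.71 (without outside-lesion replicate 3) to 2.66 (without outside-lesion replicate 2), and that of S100a9 from 1.84 to 2.90 without the same arrays. Against wild type, S100a8 ran from 2.16 (without wild-type replicate 2) to 3.33 (without wild-type replicate 3). S100a9 ran there from 2.61 to 4.45 without the same arrays, and was 2.62 without wild-type replicate 1. Outside lesions against wild type gave 0.48 ± 0.62 for S100a8 (limma adjusted p 0.674) and 0.95 ± 0.85 for S100a9 (limma adjusted p 0.519).

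**Figure D3:**
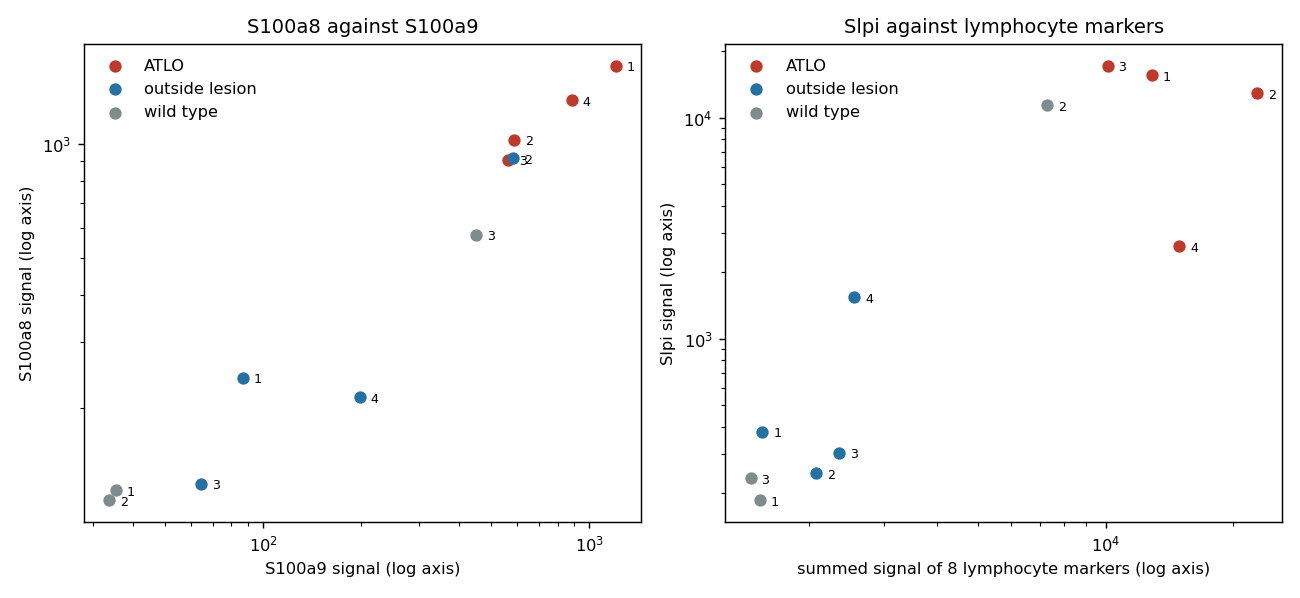
Left, S100a8 against S100a9 on each of the 11 arrays, and right, Slpi against the summed signal of 8 lymphocyte markers, all on log axes with points numbered by replicate. Outside-lesion replicate 2 falls among the ATLO arrays on the left, and wild-type replicate 2 stands nearest to the ATLO arrays on the right.

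The S100a8 and S100a9 signals followed each other over the arrays, with a Pearson r of 0.973 over 11 arrays and 0.95 after each group's mean was taken off. These points share the group differences, in the first case, and the scaling of each array, in both. Other genes of the S100 list did not share one direction: of 8 tested, 2 rose and 3 fell against outside lesions. Of the 2 that rose, S100pbp, by 0.69 ± 0.18 (limma adjusted p 0.0102), encodes a protein that binds S100P and is not itself an S100 protein. S100a4, expressed by fibroblasts and leukocytes, rose by 2.29 ± 0.28 (limma adjusted p 5.69e-05). S100a1, best known from heart and muscle, fell by 1.92 on the log2 scale (limma adjusted p 9.72e-05), and S100b, known from glia and adipocytes, fell by 1.35 (limma adjusted p 0.0102).

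The groups overlapped in their summed signal of neutrophil markers, while single markers differed. The summed signal of 16 neutrophil genes was 1323.9 to 1793.8 on the ATLO arrays, 1136.2 to 1664.8 outside lesions and 1231.6 to 1442.7 in wild type. Camp, Ctsg and Cxcr2 were below the floor on all 11 arrays, and on outside-lesion replicate 2 the sum was 1298.3, inside the range of its group. Of 8 neutrophil genes tested, 1 rose against outside lesions, Il1r2, the decoy receptor for interleukin-1, by 1.94 ± 0.33 (limma adjusted p 6.49e-04). Against wild type 3 of the 8 rose and 1 fell. Il1r2 rose there by 2.07 ± 0.36 (limma adjusted p 0.00134) and Prtn3, for proteinase 3, by 1.86 ± 0.47 (limma adjusted p 0.0113). Prtn3 lay below the floor on 2 of the 3 wild-type arrays, so its change is understated. Chil3, a chitinase-like protein also made by macrophages, read 72.6 to 356.6 in ATLO and lay below the floor on all 3 wild-type arrays, so its fitted change of 2.01 ± 0.44 (limma adjusted p 0.00514) rests on the floor. Mmp9, for a gelatinase, fell by 0.98 on the log2 scale (limma adjusted p 0.0336). Macrophage markers moved with the ATLO values, with a sum over 18 genes of 69855 to 120350 in ATLO. The sum was 25800 to 49700 outside lesions and 34758 to 50494 in wild type. Of the 18, 16 rose against outside lesions, beside 19.8% of all genes. The part of neutrophil and macrophage genes in the S100a8, S100a9, Lcn2 and Saa3 differences was not tested.

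Among 11 tested alarmins and receptors of alarmins, 9 rose and 0 fell against outside lesions, beside 19.8% and 14.9% of all genes. Against wild type 5 rose and 0 fell, beside 13.6% and 14.1%. The medians were 0.76 and 0.47. Il1b, the inflammasome-processed cytokine, rose by 2.52 ± 0.26 and 2.33 ± 0.28, with limma adjusted p of 2.2e-05 and 1.44e-04. Il33, a nuclear alarmin of stromal cells, rose by 2.22 ± 0.29 against outside lesions (limma adjusted p 9.93e-05). Tlr4, a receptor for calprotectin, read 175.8 to 272.7 in the Apoe-deficient groups and gave 0.22 ± 0.19 (limma adjusted p 0.39).

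**Figure D4:**
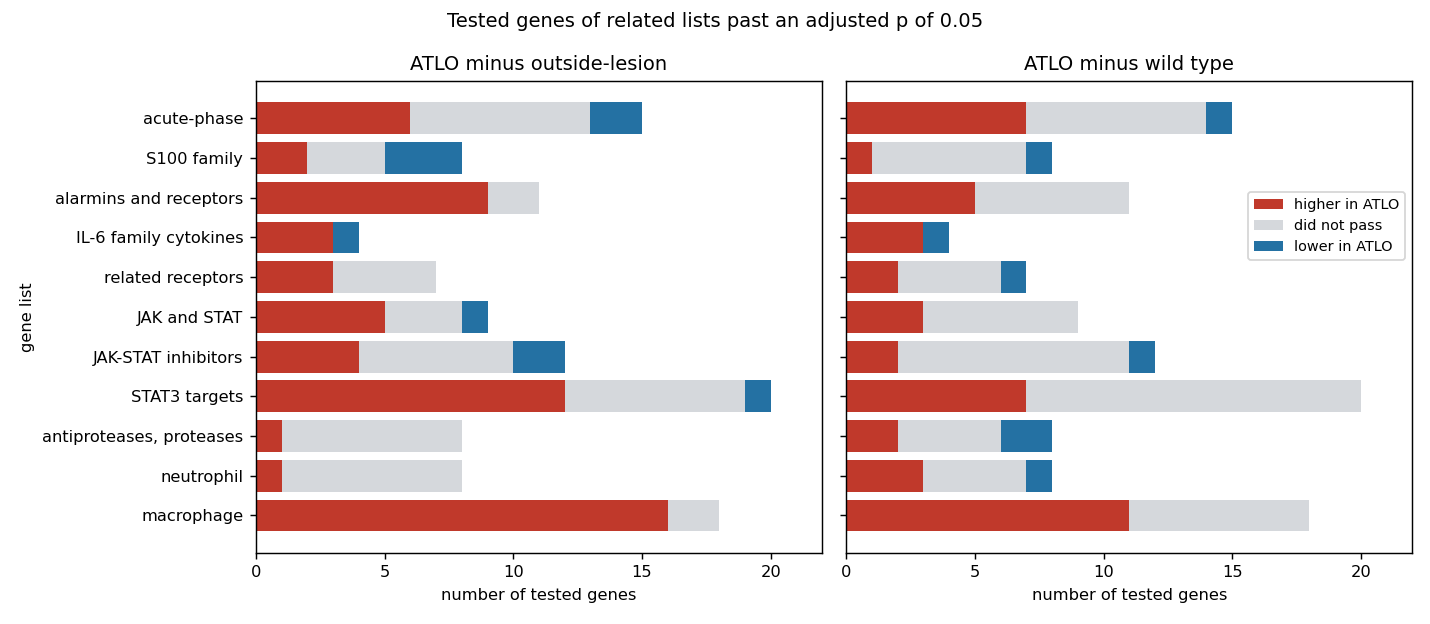
Number of tested genes in each related list that were higher, lower or neither in ATLO at a limma adjusted p of 0.05, against outside lesions on the left and wild type on the right; the 10 genes themselves are in none of the lists. The STAT3 target list has 12 higher and 1 lower of 20 on the left, and the S100 list 2 higher and 3 lower of 8. The higher ones of the S100 list include S100pbp, which does not encode an S100 protein. Of all genes tested, 19.8% were higher and 14.9% lower on the left, and 13.6% and 14.1% on the right.

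Slpi encodes secretory leukocyte protease inhibitor, which blocks neutrophil elastase and cathepsin G and is made by epithelia, macrophages and neutrophils. It read 15527.8, 12872, 17172.3 and 2617.7 on the ATLO arrays, 379.9, 246.2, 304.4 and 1539.5 outside lesions and 185.4, 11358.5 and 233.7 in wild type. ATLO lay above outside lesions without overlap, but wild-type replicate 2 was within the ATLO range and far above the other 2 of its group. Means were 12047 ± 6531 (SD, n = 4), 618 ± 617 (n = 4) and 3926 ± 6437 (n = 3). The log2 change of Slpi was 4.41 ± 1.09 (SE) against outside lesions, a 21.3-fold difference, and 3.62 ± 1.18 against wild type, a 12.3-fold difference. Without wild-type replicate 2 the latter was 5.55, a 46.8-fold difference, without wild-type replicate 1 it was 2.58, a 5.98-fold difference, and without wild-type replicate 3 it was 2.75, a 6.71-fold difference. Without ATLO replicate 4 the change against outside lesions was 5.04. Outside lesions against wild type gave -0.79 ± 1.18 (limma adjusted p 0.72), and 1.14 without wild-type replicate 2.

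On wild-type replicate 2, Slpi exceeded the higher of the other 2 wild-type arrays by 5.60 on the log2 scale, the largest such excess of all 22626 probe sets. The next named genes in that order, chosen here after their values were seen, were the immunoglobulin genes Igkv15-103 at 4.86 and Igha at 4.65. Igha, the heavy chain of immunoglobulin A, read 362.7, 18045.3 and 720.1 on the 3 wild-type arrays. Ms4a1, the B cell surface protein CD20, followed at 4.01. The summed signal of 8 lymphocyte markers was 7286.4 on this array, beside 1531.8 and 1458.2 on the other 2. Outside-lesion replicate 4, the highest of its group for Slpi, also had the highest lymphocyte sum of its group, at 2557.7, whereas ATLO replicate 4, the lowest for Slpi, had the second highest of its own, at 14918. Whether cells taken along in the dissection set the Slpi signal of wild-type replicate 2 was not tested.

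Epithelial markers, from cells that also make Slpi, were low on all arrays, but their sum was higher on every ATLO array than on any other. The list was divided: means were higher in ATLO than in both other groups for Epcam, Cdh1, Cldn7 and Spint1. They were lower than in both for Krt10, Krt14, Krt20, Cldn4 and Elf3. Krt5 and Krt13 lay between, and Krt4 was below the floor on all arrays. The sum over 12 genes was 989.6 to 1415.5 in ATLO and 473.7 to 890 outside lesions. In wild type it was 746.5 to 941.6, with the 746.5 on wild-type replicate 2. Of 6 tested, 4 rose and 0 fell against outside lesions, and 4 rose and 1 fell against wild type. The 4 were Epcam, Cdh1, Cldn7 and Spint1, which read at most 25.3, 87.7, 62.7 and 83.9 outside ATLO. They passed the filter on low signals through their ATLO arrays, so these counts are partly set by the filter and nothing is read from them. Epcam read 92.5 to 463.7 in ATLO and lay below the floor on all other arrays. Its change of 2.45 ± 0.45 against outside lesions (limma adjusted p 0.00108) thus rests on the floor. Spint1 rose there by 1.82 ± 0.30 (limma adjusted p 4.82e-04), and Elf3 fell against wild type by 1.11 on the log2 scale (limma adjusted p 0.0335). The part of epithelial cells in the Slpi differences was not tested. Of the 8 tested antiproteases and their target proteases, 1 rose against outside lesions, Serpinb1a, another inhibitor of neutrophil proteases, by 1.60 ± 0.37 (limma adjusted p 0.0052). Against wild type 2 rose, Serpinb1a by 1.57 ± 0.40 (limma adjusted p 0.012) and Prtn3, the neutrophil protease given above, and 2 fell. Those that fell were Timp3, an inhibitor of metalloproteinases, by 1.47 on the log2 scale (limma adjusted p 0.00123), and Wfdc1, of the same protein fold family as Slpi, by 1.37 (limma adjusted p 0.00317). Elane, for the elastase that the Slpi product blocks, read 22.9 to 126.1 over all arrays, and Ctsg, for cathepsin G, 3.5 to 27.5.

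**Figure D5:**
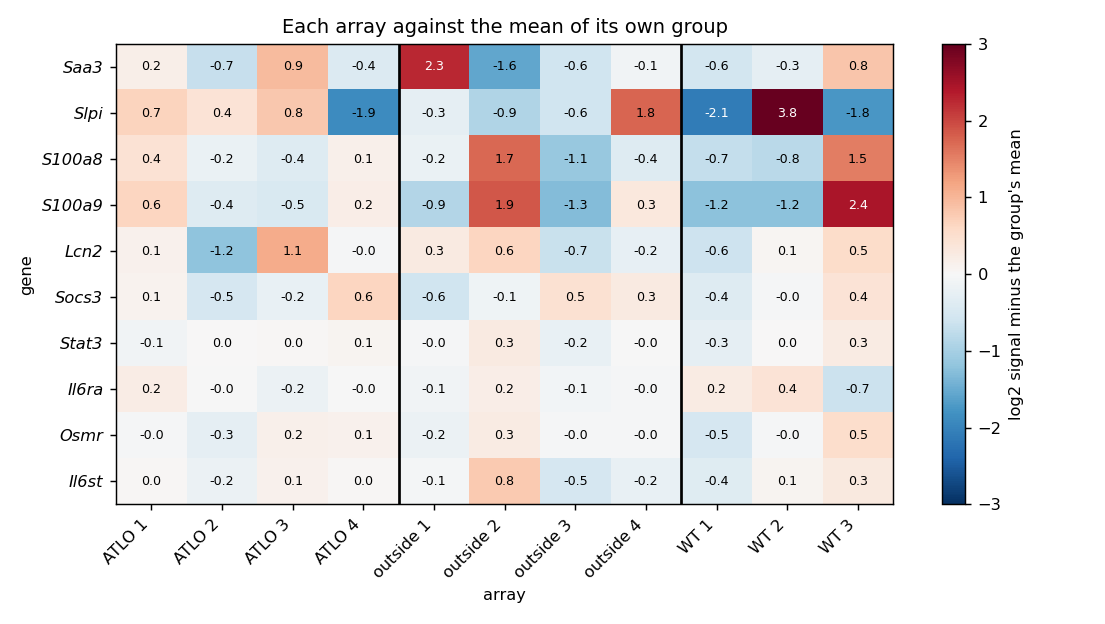
Log2 signal of each gene on each array minus the mean of that array's own group, in colour with the value printed. S100a8, S100a9 and Il6st are high together on outside replicate 2, and Slpi on wild-type replicate 2 deviates by 3.85, the most in the panel.

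Within groups, the genes did not all follow the same arrays. Outside-lesion replicate 2 was the highest of its group for 7 of the 10 genes, S100a8, S100a9, Lcn2, Stat3, Il6ra, Osmr and Il6st, and the lowest for Saa3 and Slpi. Wild-type replicate 3 was the highest of its group for 8 of the 10, all but Slpi and Il6ra. In ATLO, replicate 3 was highest for Saa3, Slpi, Lcn2, Osmr and Il6st, replicate 1 for S100a8, S100a9 and Il6ra, and replicate 4 for Socs3 and Stat3. The actin ratio of ATLO replicate 3 was 8.137, the highest of that group, and that of ATLO replicate 2, the lowest of its group for 5 genes, was 1.714, the lowest of all. With this ratio as a covariate the ATLO minus outside-lesion change was 5.41 for Saa3 and 3.26 for Lcn2, and 7 rather than 11 probe sets passed. Saa3, Lcn2 and all 3 probe sets of Socs3 still passed. The calls that were lost were among the probe sets of Slpi, S100a8, S100a9, Stat3 and Osmr.

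The genes whose signals were most like each of the 10 over the 11 arrays were ranked by Pearson r on the log2 scale, as a description in which group differences and array scaling are shared by the points. Stat3 and Osmr were among each other's 3 nearest, with an r of 0.976 overall and 0.817 after group means were taken off, and both had Slfn4, a myeloid Schlafen gene, as their nearest, at 0.984 and 0.982. Saa3 was nearest to Sphk1, sphingosine kinase 1, at 0.969, and next to Timp1 at 0.957. Lcn2 was nearest to Sfrp4, a secreted Wnt antagonist, at 0.974. Socs3 was nearest to Col20a1, a collagen, at 0.966, then to Ptpn1, a phosphatase, at 0.956 and Il1r1, the interleukin-1 receptor, at 0.953. Slpi was nearest to Cdk1, the mitotic kinase, at 0.947, and Cd180, a Toll-like family protein of B cells, was at 0.935. Il6ra was nearest to Diaph2 at 0.924, and Il6st to Scand1 at 0.965. Saa3 and Lcn2 had an r of 0.889 overall but 0.406 after group means were taken off.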

How the data were processed

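The deposited values are intensities on a linear scale, 1 for each probe set, made by the authors with GCOS 1.4, per the submitters' processing notes. Trimmed means of the deposited intensities were 500.168 to 500.266, so the arrays had been scaled to a common level. How probes were summarised into a probe set is not stated there, and detection calls were not used. Of 22690 probe sets, 64 controls were left out, and 20380 of the rest had 1 gene symbol. Signals below 35.1 (the 20th percentile over the table) were set to that floor before log2 was taken, so folds of dim probe sets are understated. Group means were estimated in limma 3.58.1 (R 4.3.3) from the 11 arrays together, letting the variance prior follow intensity. It covered the 14988 probe sets with 3 arrays above their own 40th percentile. P-values were adjusted by Benjamini-Hochberg over all of them, and the threshold was 0.05. The brightest probe set represents a gene. The script was checked on simulated data.

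The 10 genes and all gene lists were chosen with earlier results of these data known. Beside the 10 genes, named genes are, in each list, up to 2 with the largest rise and 2 with the largest fall among those called, the 3 most alike genes of each member, Apoe, and genes marked as chosen after their values were seen; further list genes (Lifr, Tlr4, Hp, the dim acute-phase genes, cytokines and proteases) are named for their role. Replicate numbers did not pair the arrays. Alternatives covered normalization, floor, filter, trend, array weights, actin ratio, replicate block, probe set choice and leaving out each array. Gene neighbours and promoters come from RefSeq (GRCm38.p6), and no gene coordinates other than those of the printed promoters are given, because the files name no build.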

Additional observations from a re-analysis of the deposited data

Results flagged for a closer look

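In 3 genes, 1 outside-lesion array stood so far above the other 3 that its gap exceeded the 95% limit of Dixon's test on linear signals. Chance exceeds that limit in about 1 in 20 groups if values are normally distributed, which linear intensities need not be. The check was not made on the log2 scale used for the fits. In all, 34 sets of 4 arrays were checked. Saa3 read 713.9 on outside-lesion replicate 1, beside 50.8 to 139.5 on the others. Slpi read 1539.5 on outside-lesion replicate 4, beside 246.2 to 379.9. S100a8 read 917.1 on outside-lesion replicate 2, beside 126.3 to 241.4. The 3 arrays differ from each other. The wild-type group, with 3 arrays, is too small for this check, so the Slpi signal of 11358.5 on wild-type replicate 2 was not examined by it.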

How the results depend on the processing

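No member's log2 change that was past the threshold changed sign under any alternative. The counts of calls in ATLO minus outside lesions (4777 of all probe sets, 11 of the 17) and ATLO minus wild type (4012 and 11) stayed within 1.5 times, except that with the actin ratio as a covariate the former were 2552 and 7. The counts in outside lesions minus wild type were not stable. From 489 probe sets they went to 301 with no filter, 248 with no intensity trend, 1530 with array weights, 86 with the actin ratio, 247 with only the compared groups fitted and 189 with the replicate block. From 1 of the 17 they went to 2 with equal array medians or array weights, and to 0 with no filter, no trend, the actin ratio, only the compared groups or the replicate block. From 4 list genes they went to 2 with no filter, no trend or the replicate block, 11 with array weights, 0 with the actin ratio and 1 with only the compared groups or with probe sets averaged. The adjusted p of Socs3 there was 0.0631 with the replicate block, 0.11 with no filter, 0.0668 with no trend, 0.121 with the actin ratio and 0.0582 with only the compared groups, and its second probe set passed with equal medians (0.046) and array weights (0.0453). The cause was not tested. Same-numbered arrays correlated at -0.178 to 0.273, and the replicate block moved no count in either ATLO comparison by over 1.5 times.

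Leaving out 1 array at a time gave 3962 to 4690 calls of all probe sets, 10 to 12 of the 17 and 88 to 100 list genes against outside lesions. Against wild type it gave 2732 to 4228, 9 to 11 and 68 to 92. Outside lesions minus wild type gave 21 (without wild-type replicate 2) to 887 (without outside-lesion replicate 2), 0 to 1 and 0 to 7. Equal array medians moved the median change of all probe sets in ATLO minus outside lesions from 0.10 to -0.01, and the share of calls that were higher from 56.3% to 44.1%, and for outside lesions minus wild type from 52.8% to 87.3% (68.8% with quantile normalization). Low signal limits the dim probe sets of Il6ra, Osmr, Stat3 and Il6st, and the probe sets of Il6ra also differed in sign.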
